A study of Homo sapiens with 22 samples.

Results

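Hypoxia and glycolysis genes were followed across melanoma cells that were left untreated or treated with a PI3K inhibitor, with TGFB1 or with an inhibitor of its receptors. The set holds 39 genes, and its rows were found by gene symbol. All 39 symbols were present among the 33538 genes of the WM989 table and among the 36601 genes of the WM983B and treatment tables. In the treatment experiment 38 of the 39 passed the filter on low counts, and CA9, a cell-surface carbonic anhydrase, did not, with at most 0.213 CPM in a library. CPM is the UMI (unique molecular identifier) count of a gene per 1000000 UMIs in the cells summed. These are 3' end counts that are not divided by gene length, so levels are compared between samples and not between genes.

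The cells came from WM989 A6-G3 and WM983B E9-D5, each a clone that had passed through single-cell bottlenecks, of human melanoma lines that carry BRAF V600E. In the treatment experiment barcoded WM989 cells of 1 well were split over plates that were left untreated (Control) or received for 5 days the PI3K inhibitor GDC-0941 at 2 µM (PI3Ki), recombinant TGFB1 at 5 ng/mL (TGFB1), or the TGFBR1/2 inhibitor LY2109761 at 4 µM (TGFBRi). This was done in 2 parallel samples, called r1 and r2 in the cell labels, which gave 8 libraries with 2 per condition. The sample labels call the parallel samples Mix and Primed, and which of them is r1 was not settled. The labels name no vehicle for the untreated plates. Untreated WM989 cells were also sequenced in 8 wells, 4 in each of replicates r1 and r2, from cultures seeded with mixed or with EGFR/NGFR-high cells. Untreated WM983B cells were sequenced in 1 library. ATAC-seq was done on WM989 cells sorted as EGFR-High, NGFR-High, EGFR-NGFR-High or, as Mix, negative for both markers, with 3 libraries of each. All the single cells carry a class given by the authors, where a primed cell is one whose expression state precedes resistance to BRAF and MEK inhibitors. The other class is called drug-susceptible here. Its label in untreated WM989 and WM983B is nres, which was read as drug-susceptible.

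Hypoxia-inducible factors are dimers of an oxygen-labile alpha subunit, such as HIF1A, with the stable subunit ARNT. In the presence of oxygen, prolyl hydroxylases (EGLN1, EGLN3) mark HIF1A for degradation, and when oxygen falls or growth signals run through PI3K, AKT and mTOR, HIF1A protein accumulates. The dimer binds a short core, RCGTG, near genes for glucose uptake, glycolysis, lactate export, mitophagy and collagen hydroxylation. Many melanomas rely on glycolysis also in the presence of oxygen. The transcript of HIF1A is not its protein, and no protein, oxygen or metabolite was measured here.

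Promoters of 4 members are shown first. They were chosen by their fall under PI3Ki, the largest first. A mean of at least 20 CPM and a RefSeq start within 200 bases of the annotated start were required. Each window holds the core ACGTG, which was not a criterion. PDK1 fell more than LDHA and P4HA1, but its RefSeq start lay 717 bases away, and its window holds neither ACGTG nor GCGTG. DDIT4 restrains mTORC1, BNIP3 drives mitophagy, LDHA makes lactate from pyruvate and P4HA1 is a catalytic subunit of collagen prolyl 4-hydroxylase. Each runs from 250 bases before to 50 bases after the start in the RefSeq table on GRCh38.p14, 5′ to 3′ on the strand of the gene, with capitals marking ACGTG on either strand (CACGT on the strand shown). Their places are chr10:72273674-72273973 (plus strand) for DDIT4, chr10:131981874-131982173 (minus strand) for BNIP3, chr11:18394313-18394612 (plus strand) for LDHA and chr10:73096817-73097116 (minus strand) for P4HA1.
DDIT4: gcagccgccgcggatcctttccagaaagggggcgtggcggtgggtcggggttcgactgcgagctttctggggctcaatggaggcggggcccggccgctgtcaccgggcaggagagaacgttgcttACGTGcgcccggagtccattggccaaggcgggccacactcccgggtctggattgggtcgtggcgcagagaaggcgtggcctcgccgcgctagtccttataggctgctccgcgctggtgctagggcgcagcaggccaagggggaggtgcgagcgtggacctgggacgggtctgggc
BNIP3: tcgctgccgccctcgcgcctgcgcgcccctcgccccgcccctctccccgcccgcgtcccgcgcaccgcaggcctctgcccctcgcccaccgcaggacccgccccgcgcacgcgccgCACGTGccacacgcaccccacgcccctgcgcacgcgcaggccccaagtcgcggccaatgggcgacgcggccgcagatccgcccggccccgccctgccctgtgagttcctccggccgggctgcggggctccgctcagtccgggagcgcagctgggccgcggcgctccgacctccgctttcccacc
LDHA: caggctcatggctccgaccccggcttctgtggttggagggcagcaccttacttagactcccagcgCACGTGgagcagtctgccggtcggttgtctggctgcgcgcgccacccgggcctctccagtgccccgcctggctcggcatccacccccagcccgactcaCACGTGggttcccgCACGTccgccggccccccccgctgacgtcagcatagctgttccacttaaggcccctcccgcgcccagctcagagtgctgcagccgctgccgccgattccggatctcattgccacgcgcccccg
P4HA1: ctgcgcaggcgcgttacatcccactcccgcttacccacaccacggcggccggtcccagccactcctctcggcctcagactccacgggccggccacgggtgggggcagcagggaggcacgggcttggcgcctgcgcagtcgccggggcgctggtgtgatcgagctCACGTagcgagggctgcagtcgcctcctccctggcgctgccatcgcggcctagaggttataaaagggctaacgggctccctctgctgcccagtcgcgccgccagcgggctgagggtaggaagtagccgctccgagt

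MIR210HG, which lies at chr11 on the minus strand, is the host transcript of the hypoxia-induced microRNA miR-210. The mature microRNA, at chr11:568112-568133, is given to show what the host encodes, with its seed (bases 2 to 8) in capitals.
hsa-miR-210-3p: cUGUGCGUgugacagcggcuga
No small RNA was sequenced, so its level is unknown.

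RefSeq promoters were matched for 36 of the 39 members. For 25 of them the RefSeq start lay within 200 bases of the annotated start of the canonical transcript. GPI (204 bases away), GAPDH (747) and ALDOA (1481) lay farther and are among those with ACGTG below. No promoter was left out of the shares for this distance. ACGTG was present on either strand in 17 of these 36 (47.2%), against 25.7% of the 11814 promoters of the same length that belong to genes tested. The palindrome CACGTG holds ACGTG on both strands, and was found in 5 members (13.9%) against 9.80%. GCGTG, the other form of the core, was found in 18 members (50%) against 49.2%. The LDHA window holds 2 of the palindromes and 5 matches to ACGTG over both strands, the most of any member, while ANKRD37, ALDOC and PGK1 hold 3 matches each. A match is a string of letters in this window and not a shown binding site.

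The treatment libraries held 3692 to 6273 cells and 70239657 to 122420544 UMIs, with a median of 13013 to 21720.5 UMIs per cell and 9.80% to 11.5% mitochondrial counts. Of the 10x cell barcodes, which label droplets and not lineages, 194 of 39827 were present in more than 1 treatment library, as were 19 of 12512 in more than 1 WM989 well. The melanocytic markers SOX10 (117 to 143 CPM), PMEL and MLANA were present in every treatment library, while the keratinocyte (KRT5, KRT14), leukocyte (PTPRC, CD3E) and epithelial (EPCAM) markers and CDH5 lay at most at 0.163 CPM. CD68, which melanoma cells also express, was at 33.4 to 45.7 CPM, and the endothelial marker PECAM1 was at 0.142 to 3.22 CPM there and reached 22.8 CPM in a state of WM989. Fold changes below are on the log2 scale with a standard error from edgeR's quasi-likelihood test on counts summed per library, over 18389 genes, with 2 libraries per condition, and "passed" means a Benjamini-Hochberg adjusted p of at most 0.05. With summed counts, fewer cells of a kind and less RNA per cell cannot be told apart.

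After 5 days of PI3Ki, 30 of the 38 members tested fell and 0 rose. Over all genes tested, 6.83% were lower and 5.83% were higher under PI3Ki than in control. The median log2 fold change of the members was -0.46, against 0.00 for all genes tested. The 38 estimates were all below 0, and in 36 of 38 both PI3Ki libraries lay under both control libraries, which held for 40.9% of all genes tested. The remaining 2 members, ADM and EGLN3, overlapped between the groups, and 0 lay above control in both libraries, against 13% of all genes. Of the 30 calls, 17 were made under each of the 14 alternatives, and 20 of 38 members passed when the replicate term was left out.

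**Figure D1:**
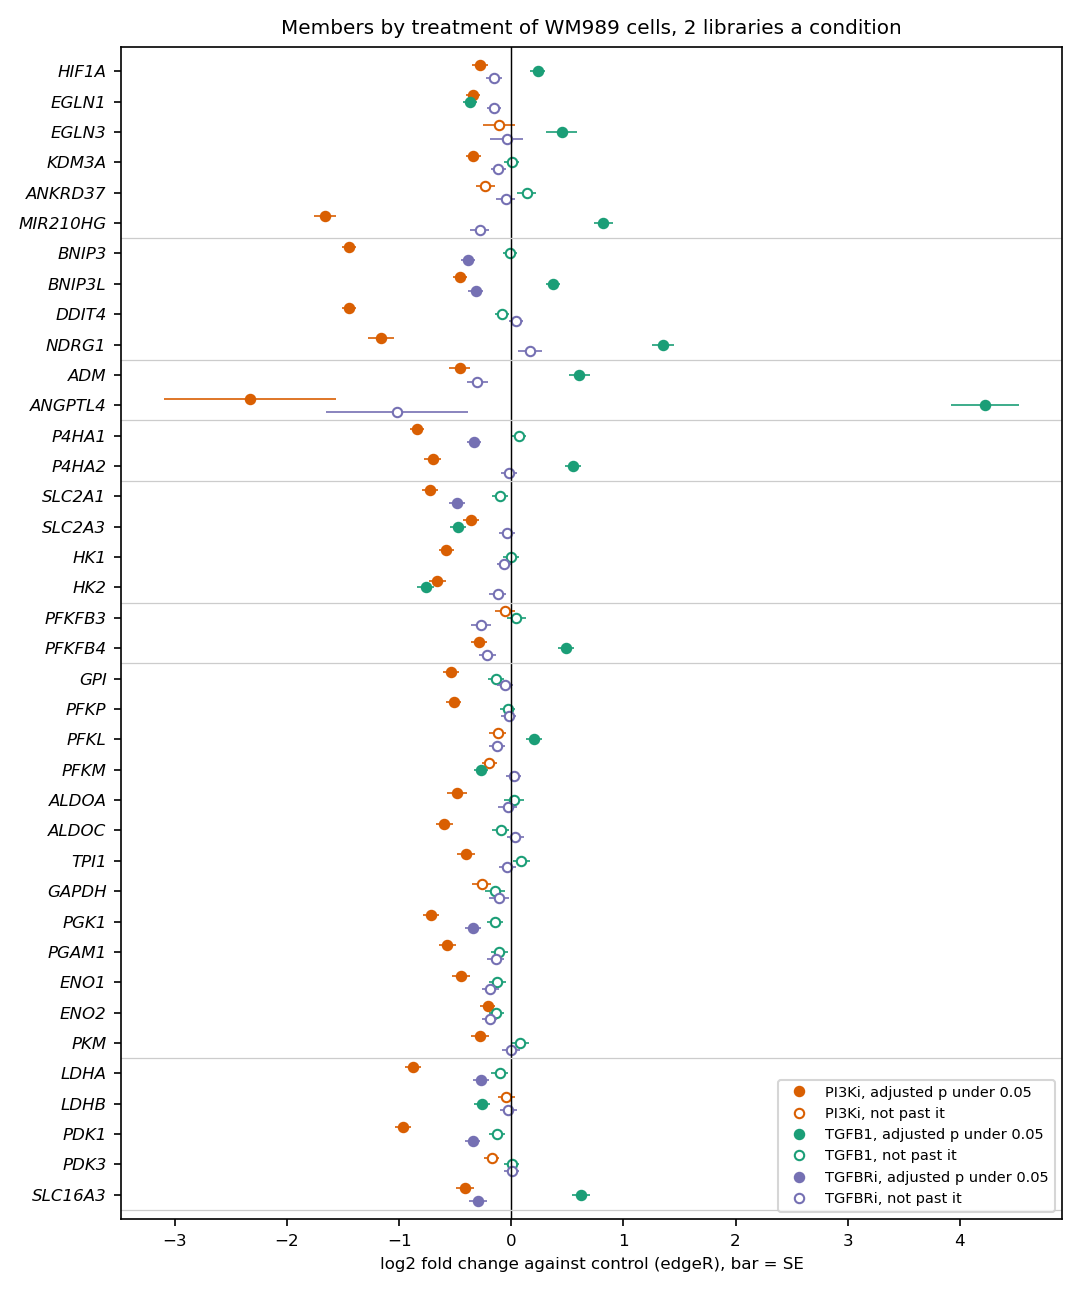
Log2 fold change against control (x axis, with standard errors) of the 38 members tested (y axis, grouped by role) for PI3Ki, TGFB1 and TGFBRi, each from 2 libraries against 2; filled points passed at an adjusted p of 0.05. All 38 PI3Ki points lie left of 0, while TGFB1 points lie on both sides, with 11 higher and 5 lower.

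All 4 of the hypoxia-induced stress and mitophagy genes fell. BNIP3, a mitophagy receptor of the outer mitochondrial membrane, stood at 205 and 246 CPM in the control libraries r1 and r2 and 71.7 and 82.1 CPM in the PI3Ki libraries. DDIT4 (also REDD1), which restrains mTORC1, stood at 149.5 and 157 CPM in control and 53.2 and 51.4 CPM under PI3Ki. Both genes were lower in each PI3Ki library than in either control library by more than a factor of 2. The log2 fold change was -1.45 ± 0.07 (SE, edgeR adjusted p = 1.56e-12) for BNIP3. For DDIT4 it was -1.45 ± 0.07 (SE, edgeR adjusted p = 1.56e-12). NDRG1, a hypoxia- and differentiation-related gene, was at a low level, 6.403 and 6.79 CPM in control and 2.92 and 2.62 CPM under PI3Ki, with a log2 fold change of -1.16 ± 0.12 (SE, edgeR adjusted p = 4.40e-07). BNIP3L, the paralog of BNIP3, fell less, by 0.46 on the log2 scale, from 57.6 and 65.8 CPM to 38.7 and 45.1 CPM.

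Among HIF1A and its oxygen-sensing and feedback genes 4 of 6 fell. MIR210HG, the host transcript shown above, changed most, from 6.93 and 7.603 CPM to 2.08 and 2.21 CPM, a log2 fold change of -1.66 ± 0.10 (SE, edgeR adjusted p = 1.33e-10). HIF1A itself stood at 115 and 115 CPM in control and 88.2 and 88.3 CPM under PI3Ki, so that the groups did not overlap, with a log2 fold change of -0.28 ± 0.07 (SE, edgeR adjusted p = 0.00908). The HIF1A call was lost in 4 of 14 alternatives, namely without the replicate term and without Control r1, PI3Ki r1 or PI3Ki r2. EGLN1, the main oxygen sensor, and KDM3A, a hypoxia-induced histone demethylase, each fell by 0.34. ANKRD37 (log2 fold change -0.23) and EGLN3 (-0.11, at 1.23 to 1.67 CPM in these 4 libraries) did not pass.

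Of the secreted genes, ADM, which encodes the vasodilator adrenomedullin, fell by 0.46. It was at 25.7 and 36.99 CPM in control and 15.7 and 27.2 CPM under PI3Ki, so that both r2 libraries were above their r1 partners and PI3Ki r2 lay above Control r1. ANGPTL4, an inhibitor of lipoprotein lipase, had 6 and 21 counts in the control libraries and 2 and 4 in the PI3Ki libraries. Its estimate of -2.33 ± 0.77 (SE, edgeR adjusted p = 0.0484) rests on these few counts and passed in 7 of 14 alternatives. Both collagen prolyl hydroxylase subunits fell. P4HA1 went from 82.02 and 84.03 CPM to 42.2 and 44.1 CPM, a log2 fold change of -0.84 ± 0.06 (SE, edgeR adjusted p = 5.54e-09). P4HA2 went from 29.95 and 32.5 CPM to 18.4 and 17.5 CPM, a log2 fold change of -0.70 ± 0.07 (SE, edgeR adjusted p = 8.22e-07). In both subunits the PI3Ki libraries lay close together and well under the control libraries.

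**Figure D2:**
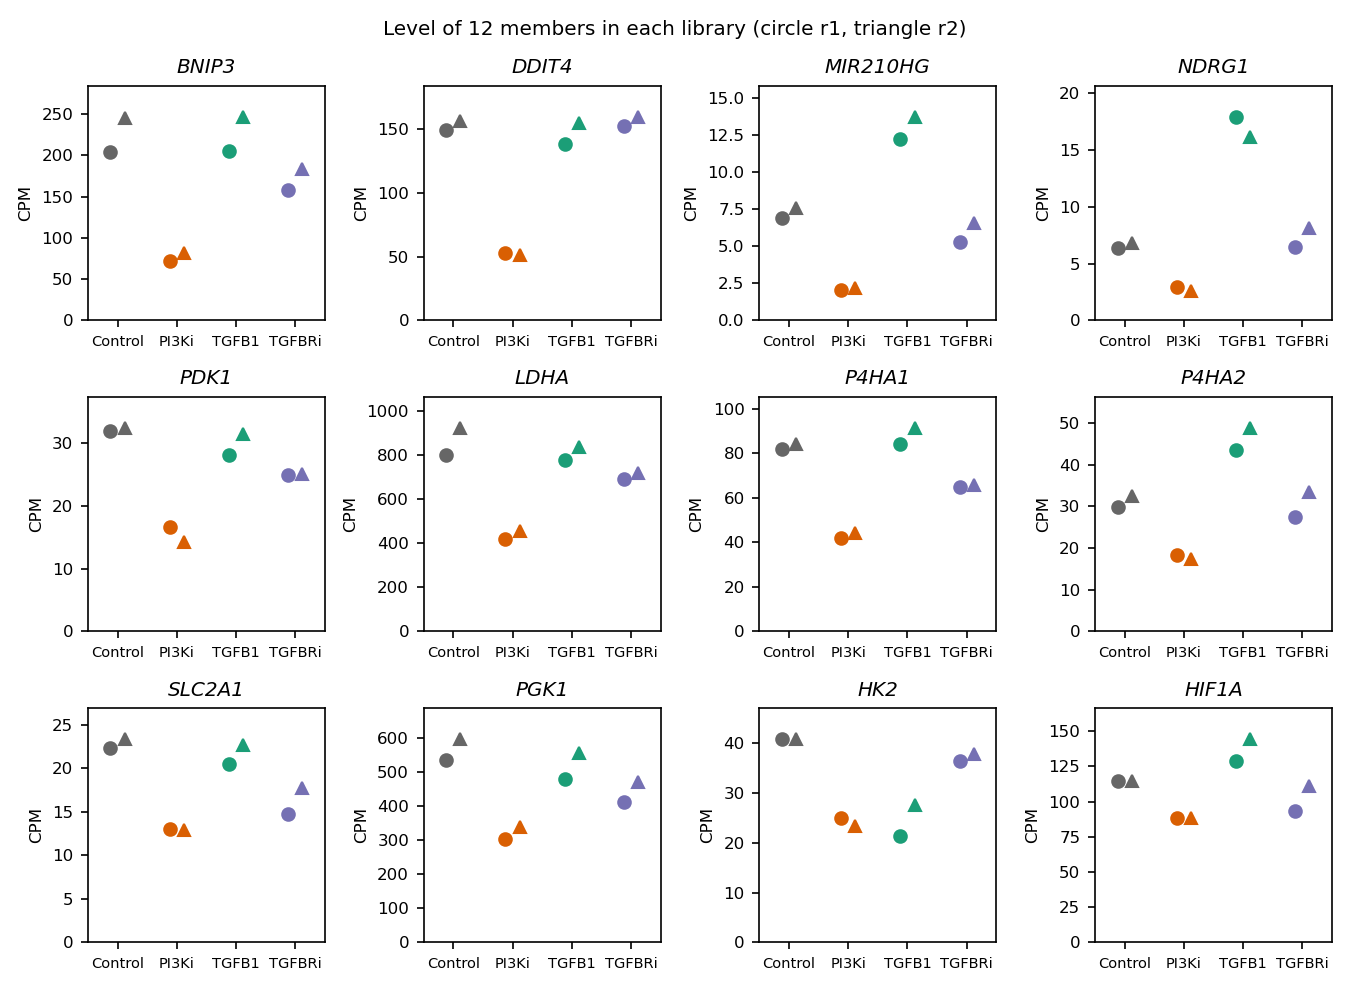
Level in CPM (y axis, from 0, its own scale for each gene) of 12 members in each of the 8 libraries, by condition (x axis), with a circle for r1 and a triangle for r2. The PI3Ki pair of BNIP3 sits at 71.7 and 82.1 CPM, the lowest of the 4 pairs, and MIR210HG and NDRG1 are highest in the TGFB1 pair.

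The 4 genes of glucose uptake and hexokinases fell together. SLC2A1, the GLUT1 transporter, was at 22.4 and 23.4 CPM in control and 12.98 and 12.9 CPM under PI3Ki, a log2 fold change of -0.72 ± 0.07 (SE, edgeR adjusted p = 5.91e-07). HK2, the inducible hexokinase, was at 40.8 and 40.9 CPM and 25.01 and 23.4 CPM, a log2 fold change of -0.66 ± 0.08 (SE, edgeR adjusted p = 4.22e-06). HK1, its constitutive paralog, was at 73.4 and 82.1 CPM and 48.5 and 48.6 CPM, a log2 fold change of -0.58 ± 0.07 (SE, edgeR adjusted p = 5.69e-06). In SLC2A1, HK1 and HK2 each PI3Ki library lay below both control libraries. SLC2A3 (GLUT3), whose counts can be split with its near copy SLC2A14, fell by 0.36. PFKFB4, which sets the level of the activator fructose 2,6-bisphosphate, fell by 0.29, and PFKFB3 had a log2 fold change of -0.06 that did not pass.

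Of the 13 glycolytic enzymes 10 fell, with a median log2 fold change over the 13 of -0.45. PGK1, which makes the first ATP of the pathway, stood at 534 and 597 CPM in control and 303 and 339 CPM under PI3Ki, a log2 fold change of -0.72 ± 0.07 (SE, edgeR adjusted p = 2.66e-07). ALDOC, an aldolase isoform, stood at 23.3 and 21.7 CPM and 13.9 and 13.9 CPM, a log2 fold change of -0.60 ± 0.08 (SE, edgeR adjusted p = 1.52e-05). In each of these the PI3Ki libraries lay below both control libraries. The other 8 that fell were PGAM1 (-0.57), GPI (-0.54), PFKP (-0.51), ALDOA (-0.48), ENO1 (-0.45), TPI1 (-0.40), PKM (-0.28) and ENO2 (-0.21). GAPDH (-0.26, edgeR adjusted p = 0.0518), PFKM (-0.19) and PFKL (-0.12) did not pass. ALDOA lies on the same strand as another annotated gene of the files, and its 4.30 to 8.41 CPM over the 8 libraries may miss reads that matched both, so its level is uncertain. GAPDH, PGK1, ENO1, LDHA, PGAM1 and TPI1 have processed pseudogenes with which reads can be shared.

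Among the pyruvate and lactate genes 3 of 5 fell. PDK1, a kinase that holds pyruvate dehydrogenase off, was at 31.9 and 32.5 CPM in control and 16.6 and 14.3 CPM under PI3Ki, a log2 fold change of -0.96 ± 0.07 (SE, edgeR adjusted p = 5.54e-09). LDHA was at 799 and 925 CPM and 421 and 455 CPM, a log2 fold change of -0.87 ± 0.07 (SE, edgeR adjusted p = 2.88e-08). Its partner subunit LDHB, which favours the reverse reaction, was at 1011 and 1064 CPM and 903 and 972 CPM, with a log2 fold change of -0.04 ± 0.07 (SE, edgeR adjusted p = 0.766). LDHA thus fell while the LDHB estimate was smaller than its standard error. SLC16A3, the lactate exporter MCT4, fell by 0.41, and PDK3 (-0.18) did not pass.

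PI3Ki also moved the makeup of the libraries. Cells assigned to G1 made up 34.0% and 32.7% of the control libraries and 43.6% and 44.1% of the PI3Ki libraries, and primed cells 2.26% and 4.47% against 0.647% and 1.21%. The members were therefore read within each phase and within the authors' clusters. In G1 cells 36 of 36 members whose mean over the 4 libraries reached 5 CPM were below control in both replicates, where 64.5% of all such genes were. In S cells it was 34 of 34 (53.9% of all genes) and in G2M cells 34 of 34 (52.5%). The median log2 ratio of the members was -0.66 in G1, -0.45 in S and -0.51 in G2M, against -0.13, -0.07 and -0.07 for all genes at that level. Within the 7 clusters that held 50 or more cells of each control and PI3Ki library, the members below control in both replicates numbered 34 of 35 in cluster 0 (40.9% of all genes), 33 of 34 in cluster 1 (49.2%), 35 of 35 in cluster 2 (48.5%) and 34 of 34 in cluster 5 (41.9%). They numbered 32 of 35 in cluster 7 (41.5%), 27 of 33 in cluster 8 (35.4%) and 30 of 35 in cluster 9 (41.6%), with medians from -0.40 to -0.51 over the 7. These are descriptions with no test, since the clusters were called from the same counts.

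**Figure D3:**
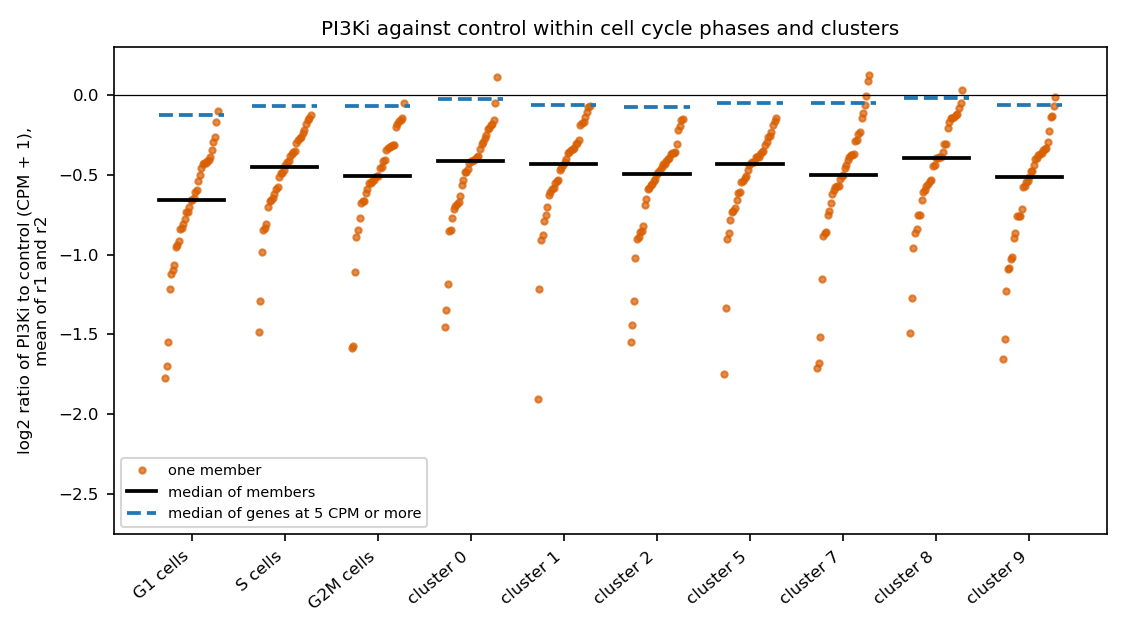
Log2 ratio of PI3Ki to control CPM + 1 (y axis, mean of r1 and r2) of each member that reached a mean of 5 CPM, within 3 cell cycle phases and 7 clusters (x axis). Each point is a member, the solid line marks the members' median and the dashed line the median of all genes at that level. The members' medians lie between -0.66 and -0.40, each below that of all genes, and BNIP3 reached -1.77 in G1.

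With primed cells left out of the sums, 31 of 38 members fell under PI3Ki in drug-susceptible cells and 0 rose, where 6.22% of 17914 genes were lower and 5.89% higher. This count was 20 without PI3Ki r2 and 20 without the replicate term. Log2 fold changes were close to those over all cells for BNIP3 (-1.43), DDIT4 (-1.41), LDHA (-0.87) and HIF1A (-0.28), and smaller for NDRG1 (-0.72 ± 0.13, SE, edgeR adjusted p = 4.10e-04). In these sums 36 of 38 members lay below control in both PI3Ki libraries, where 39.6% of all genes did. Against TGFBRi, the other inhibitor, 23 members were lower under PI3Ki and 0 higher, beside 8.77% lower and 8.25% higher of all genes, and 15 were lower without the replicate term. DDIT4 led these with a log2 difference of -1.49 ± 0.07 (SE, edgeR adjusted p = 4.78e-13). The difference of HIF1A from TGFBRi was -0.13 ± 0.07 (SE, edgeR adjusted p = 0.241) and did not pass. Against TGFB1, 30 members were lower and 1, LDHB, was higher, beside 18.7% lower and 15.3% higher of all genes. That LDHB call passed in 8 of 14 alternatives. These 3 comparisons share the PI3Ki libraries. FOS, JUN, ATF3 and other genes that respond to cell handling were read too. Of these 9 genes, 2 were higher under PI3Ki than in control (FOS 0.22 ± 0.07, HSPA1A 0.22 ± 0.06) and 2 were lower (ATF3 -1.17 ± 0.14, JUN -0.84 ± 0.18). They were 0 higher and 4 lower against TGFBRi and 0 higher and 6 lower against TGFB1, the direction in which the members differed too, and their part in the fall of the members was not tested.

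Under TGFB1 11 of 38 members rose, beside 16.3% of all genes, and 5 of 38 fell, beside 12.7%, which is near that share. The risers were 7 without the replicate term, and the fallers 3 without Control r1 and 3 without TGFB1 r1. The median log2 fold change was 0.00. ANGPTL4 rose most, from 0.0768 and 0.262 CPM in control to 3.05 and 3.38 CPM, a log2 fold change of 4.23 ± 0.30 (SE, edgeR adjusted p = 2.54e-10). NDRG1 rose from 6.403 and 6.79 CPM to 17.95 and 16.1 CPM, a log2 fold change of 1.36 ± 0.10 (SE, edgeR adjusted p = 2.86e-10). MIR210HG rose from 6.93 and 7.603 CPM to 12.2 and 13.7 CPM, a log2 fold change of 0.82 ± 0.08 (SE, edgeR adjusted p = 5.73e-08). In these 3 genes both TGFB1 libraries lay above all of the other 6. SLC16A3 rose from 80.1 and 81.9 CPM to 121 and 130.2 CPM, a log2 fold change of 0.62 ± 0.08 (SE, edgeR adjusted p = 2.26e-06). ADM rose to 42.9 and 52.1 CPM, a log2 fold change of 0.61 ± 0.09 (SE, edgeR adjusted p = 1.92e-05). The other risers were P4HA2 (0.55), PFKFB4 (0.49), EGLN3 (0.45), BNIP3L (0.37), HIF1A (0.23) and PFKL (0.20).

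HK2 fell most under TGFB1, from 40.8 and 40.9 CPM to 21.3 and 27.5 CPM, a log2 fold change of -0.76 ± 0.08 (SE, edgeR adjusted p = 7.06e-08). SLC2A3 (-0.47), EGLN1 (-0.37), PFKM (-0.27) and LDHB (-0.26) also fell. Of the 13 glycolytic enzymes 11 did not pass, and 22 of all 38 members did not. BNIP3 stood at 205 and 247 CPM, beside 205 and 246 CPM in control, and LDHA at 779 and 838 CPM, beside 799 and 925 CPM.

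Primed cells made up 29.1% and 31.3% of the TGFB1 libraries against 2.26% and 4.47% of control. The drug-susceptible cells differed in makeup too. Their largest cluster was cluster 3 in both TGFB1 libraries and cluster 0 in both control libraries. The part of this difference in the changes within drug-susceptible cells was not tested. In drug-susceptible cells alone, 6 members rose under TGFB1 (8.56% of all genes) and 9 fell (6.32%). NDRG1 then had a log2 fold change of 0.25, MIR210HG of -0.01 and BNIP3L of -0.07, none of which passed. ANGPTL4 (3.07), ADM (0.51), PFKFB4 (0.36), P4HA2 (0.32), HIF1A (0.32) and SLC16A3 (0.29) rose in these cells as well. BNIP3 (-0.42 ± 0.06, SE, edgeR adjusted p = 4.05e-05) and DDIT4 (-0.51 ± 0.06, SE, edgeR adjusted p = 3.20e-06) fell in drug-susceptible cells, while over all cells their estimates were -0.01 and -0.08. SLC2A3, HK2, EGLN1, PDK1, SLC2A1, ANKRD37 and LDHA were the other 7 that fell, by 0.27 to 0.68. The total of 15 became 9 without Control r2, 8 without TGFB1 r1 and 9 without the replicate term.

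Under TGFBRi 8 members fell, beside 1.45% of all genes, and 0 rose, beside 1.09%. SLC2A1 stood at 14.7 and 17.7 CPM against 22.4 and 23.4 CPM in control, a log2 fold change of -0.48 ± 0.07 (SE, edgeR adjusted p = 3.34e-04). BNIP3 stood at 158 and 183 CPM against 205 and 246 CPM, a log2 fold change of -0.38 ± 0.06 (SE, edgeR adjusted p = 9.40e-04). The libraries of both genes did not overlap between the conditions, though the gap was narrow next to that between r1 and r2 for BNIP3. PDK1 (-0.35) was at 25.04 and 25.1 CPM, P4HA1 (-0.33) at 65.04 and 65.7 CPM and BNIP3L (-0.32) at 47 and 50.8 CPM. PGK1 (-0.34) was at 412 and 471 CPM, and SLC16A3 (-0.30) and LDHA (-0.27) also fell. DDIT4 (0.05), with 153 and 159.8 CPM, was within error of control. The count of 8 was 0 without the replicate term, 2 without Control r1 and 1 without Control r2, and 3 in G1 cells only, so it rests on both control libraries and on the pairing of libraries. In drug-susceptible cells 9 fell (1.59% of all genes) and 0 rose (1.22%), and 3 fell without Control r1, 5 without Control r2 and 1 without the replicate term. Both TGFBRi libraries lay below both control libraries for 17 of 38 members over all cells (19.8% of all genes) and for 18 of 38 in drug-susceptible cells (20.1%).

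Other genes of these pathways, from lists that hold no member, were read beside the members. Of 38 tested of 40 other HIF pathway genes, 17 were lower and 3 higher under PI3Ki, with a median log2 fold change of -0.28. LOXL2, a lysyl oxidase (-1.85 ± 0.12), and VEGFA, the angiogenic growth factor (-1.25 ± 0.09), were among the lower genes, while ARNT2, BHLHE41 and MXI1 were higher by 0.20 to 0.37. Of 40 tested of 51 other glucose metabolism genes, 7 were lower and 5 higher, with a median of -0.07. HKDC1, a hexokinase domain protein, was lowest (-0.85 ± 0.18), and PKLR, the liver pyruvate kinase (1.03 ± 0.18), and TXNIP, a glucose-responsive brake on glucose uptake (0.88 ± 0.08), were highest. Under TGFB1 the counts were 11 higher and 6 lower for the HIF list, with LOXL2 (2.21 ± 0.09) among the higher, and 6 higher and 13 lower for the glucose list, where TXNIP was highest (1.53 ± 0.08). Under TGFBRi they were 0 higher and 5 lower, and 1 higher and 0 lower, the higher gene being TXNIP (0.32 ± 0.08). Of the 9 handling genes 6 rose under TGFB1 and 3 under TGFBRi, and 0 fell under either, and their part in the members' changes was not tested.

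Across the 13 clusters of the treatment experiment, 37 members reached 5 CPM in a cluster. Their highest level was in cluster 4 for 16, beside 15.2% of the 10944 genes at that level, and in cluster 10 for 12, beside 16.8%, the clusters that the authors class as primed. Their lowest level was in cluster 6 for 14, beside 16.9% of genes, and in cluster 11 for 20, beside 44.7%, so that many genes of any kind were lowest in cluster 11. These are summed levels over all libraries, and the clusters differ in makeup, since 3254 of the 3270 cells of cluster 4 came from TGFB1, and PI3Ki cells made up 88.5% of cluster 6 and 80.6% of cluster 11 (271 of its 355 cells from PI3Ki r2). With control libraries alone, where cluster 4 has 11 cells and was left out, cluster 10 was highest for 17 of 36 members, beside 25.9% of genes. NDRG1 ranged from 1.07 CPM in cluster 9 to 92.6 in cluster 10 and 51.05 in cluster 4. BNIP3 ranged from 68.9 CPM in cluster 6 to 428 in cluster 10, and DDIT4 from 52.2 to 325. LDHA was at 332 CPM in cluster 6, 333 in cluster 11 and 1079 in cluster 4. NDRG1, BNIP3, DDIT4 and LDHA were thus each highest in a primed cluster when all libraries were summed. In control libraries alone, NDRG1, BNIP3 and DDIT4 were again highest in cluster 10. LDHA was then highest in drug-susceptible cluster 9 (1050 CPM), with 991 CPM in cluster 10. LDHB was lowest in cluster 11 (531 CPM) and in primed clusters 4 (559.7) and 10 (627). Clusters 6 (881) and 3 (911) came next, and cluster 9 was highest (1184). ENO1 stood apart in cluster 11 with 383 CPM against 916 in cluster 6, the next lowest. HIF1A was highest in cluster 5 (156 CPM), a drug-susceptible cluster.

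**Figure D4:**
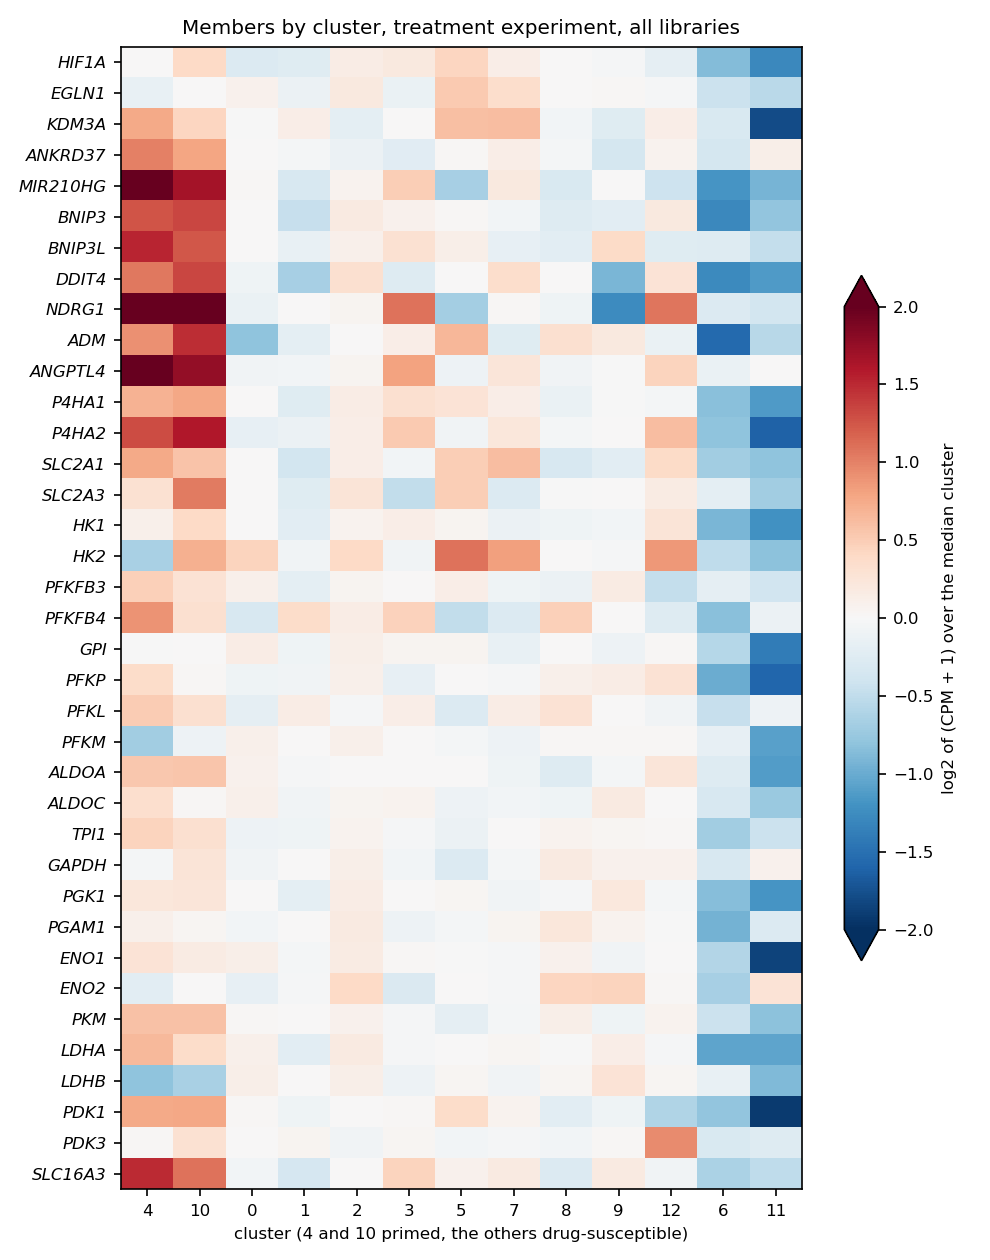
Level of each member (rows) in each cluster (columns) of the treatment experiment, as log2 of CPM + 1 relative to the member's median over clusters (colour), with counts summed over the 8 libraries. Columns 4 and 10, at the left, hold the highest level of 28 members, and columns 6 and 11, at the right, the lowest of 34, while LDHB is lowest in columns 4, 10 and 11.

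Within cluster 6 itself, which held 129 and 39 control cells, 22 of the 33 members with a mean of 5 CPM were lower in both PI3Ki libraries than in both control libraries, beside 23.5% of genes at that level. BNIP3 was at 121 and 105 CPM in control cells of that cluster and at 63.1 and 65.8 CPM in PI3Ki cells. SLC2A1 was at 11.04 and 9.89 CPM in control cells and 9.698 and 11.2 in PI3Ki cells, so it overlapped there. The control cells of this cluster had less BNIP3 than the 205 and 246 CPM of their whole libraries.

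The ratio of primed to drug-susceptible cells was then taken within each library. For NDRG1 it was 22.47 and 24.26 in control, 9.50 and 10.40 under TGFB1 and 26.62 and 18.93 under TGFBRi. For BNIP3 it was 2.24 and 1.98 in control and 2.44 and 2.42 under TGFB1, and for DDIT4 2.53 and 2.67, then 2.37 and 2.71. NDRG1, BNIP3 and DDIT4 were therefore higher in primed cells in every one of these libraries. HIF1A was above 1 in control (1.11 and 1.39) and TGFBRi (1.56 and 1.51) and below 1 under TGFB1 (0.80 and 0.81), where most primed cells are of cluster 4. LDHB was below 1 in all 8 libraries, between 0.55 and 0.67. PI3Ki libraries held few primed cells, and in them BNIP3 rests on 31 and 219 counts. The classes come from clusters of the same counts, so these ratios are descriptions.

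In untreated WM989, 9688 drug-susceptible and 2843 primed cells were compared with no test, since they form 1 sample, whose wells are loading wells of the chip that share cultures. A gene was counted as past the fold where its ratio was at least 1.5 or at most 1/1.5 and lay on the same side of 1 in all 8 wells and the gene reached 20 CPM in either state. Of 29 members at that level, 11 were higher in primed cells, beside 17.2% of 6316 genes, and 1 was lower, beside 14.5%. The median ratio was 1.24, against 0.999 for all genes at that level.

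NDRG1 had the highest ratio, with 119 CPM in the primed class, 6.496 CPM in the drug-susceptible class and a ratio of 18.4 with wells from 8.43 to 28.2 (median 12). ADM stood at 236 and 21.98 CPM, a ratio of 10.8 with wells from 5.77 to 12.4. SLC16A3 stood at 416 and 106 CPM, a ratio of 3.92 with wells from 2.82 to 4.83. SLC16A3 was thus higher in the primed cells of every well. DDIT4 had a ratio of 3.68 (331 and 89.9 CPM, wells 2.72 to 5.396). HIF1A had a ratio of 2.901 (189.7 and 65.4 CPM, wells 1.72 to 3.14), and BNIP3L of 2.84 (144 and 50.7 CPM, wells 2.42 to 3.12). P4HA2 (2.61), BNIP3 (2.195), PKM (2.02), SLC2A3 (1.75) and LDHA (1.75) were the other 5. These ratios sum all wells, but primed cells outnumbered drug-susceptible cells in wells 1, 2, 5 and 6 only. In those wells the HIF1A ratio was 2.62 to 3.14, against 1.72 to 1.97 in wells 3, 4, 7 and 8. DDIT4 had 4.48 to 5.396 against 2.72 to 3.51, and NDRG1 8.43 to 11.6 against 12.4 to 28.2. SLC16A3 overlapped (3.06 to 4.83 against 2.82 to 3.56). The part of the seeded culture in the ratios was not tested. Counting intervals were narrow, for example 118 to 121 CPM (95%, exact Poisson) for NDRG1 in primed cells, and cover counting error only.

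Most enzymes of the glycolytic chain stayed near 1 in WM989. PGK1 had a ratio of 0.999, PFKP of 0.997 and ENO1 of 0.9501. GPI, the isomerase that follows hexokinase, was the member past the fold on the low side, at 52.6 and 79.97 CPM (ratio 0.658, wells 0.522 to 0.742). PFKFB4 had the lowest ratio, 0.546, but its wells ran from 0.2602 to 1.37. The level of PFKFB4 differed by replicate, at 9.77 to 11.4 CPM in drug-susceptible cells of r1 wells and 50.9 to 77.1 CPM in r2 wells. LDHB (0.701) and PGAM1 (0.768) were below 1 in 8 of 8 wells, and EGLN1 (0.834) and PFKM (0.934) in 7 and 6. The 10 members under 20 CPM in both states included ANGPTL4 (7.58 and 0.0913 CPM) and MIR210HG (15.2 and 4.64 CPM), both higher in primed cells. Primed cells had 8.31% mitochondrial counts and 73.7% in G1, against 14.4% and 25.5%. In G1 cells only, 11 of 28 members at 20 CPM were higher in primed cells and 1 was lower. With members and mitochondrial genes left out of the CPM totals, 11 of 31 were higher and 2 were lower. The share of all genes was not taken under either setting, so these counts cannot be set against one. The part of phase and mitochondrial share in the ratios was not tested. Over the 11 clusters, 37 members reached 5 CPM and were highest in primed clusters 2 for 12 (19.3% of genes) and 9 for 8 (19.5%), and lowest in cluster 3 for 15 (21.3%), a drug-susceptible cluster with 18.6% mitochondrial counts. The ratios of the other 9 members at 20 CPM, ENO2, TPI1, HK1, GAPDH, KDM3A, ALDOA, PFKL, HK2 and P4HA1, ran from 1.03 to 1.36. Of these, ALDOA was at 29.3 to 67.5 CPM in r1 wells but at 1.86 to 3.72 CPM in r2 wells, over both states. Cluster 3 had 419 CPM of ENO1, 178 of PGK1 and 256 of LDHA.

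The melanocytic marker SOX10 was at 130 CPM in the drug-susceptible cells of WM989 and at 7.09 CPM in its primed cells, so the primed class there is low in it. In WM983B the classes differed little in SOX10, with 192 CPM in the lower and 208 CPM in the higher. MITF, another melanocytic marker, was at 197 CPM in the lower and 392 CPM in the higher class of WM983B. Of the other HIF pathway genes at 20 CPM, 9 of 21 were higher in primed WM989 cells and 2 were lower. VEGFA (24.6) and LOXL2 (16.5) were among the higher of these and BHLHE41 (0.307) had the lowest ratio. Of the other glucose metabolism genes, 3 of 28 were higher, led by MPC2, a subunit of the mitochondrial pyruvate carrier (2.81), and 8 were lower. Of 6 handling genes at that level 3 were higher, among them JUN (26.1), and their part in the members' ratios was not tested. The paper reports JUN as induced by TGFB1, to a lower level than in untreated primed cells. In WM983B the counts were 4 higher and 1 lower of 23 HIF genes, with VEGFA at 2.096, 1 higher and 0 lower of 27 glucose genes, and 1 higher of 6 handling genes.

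**Figure D5:**
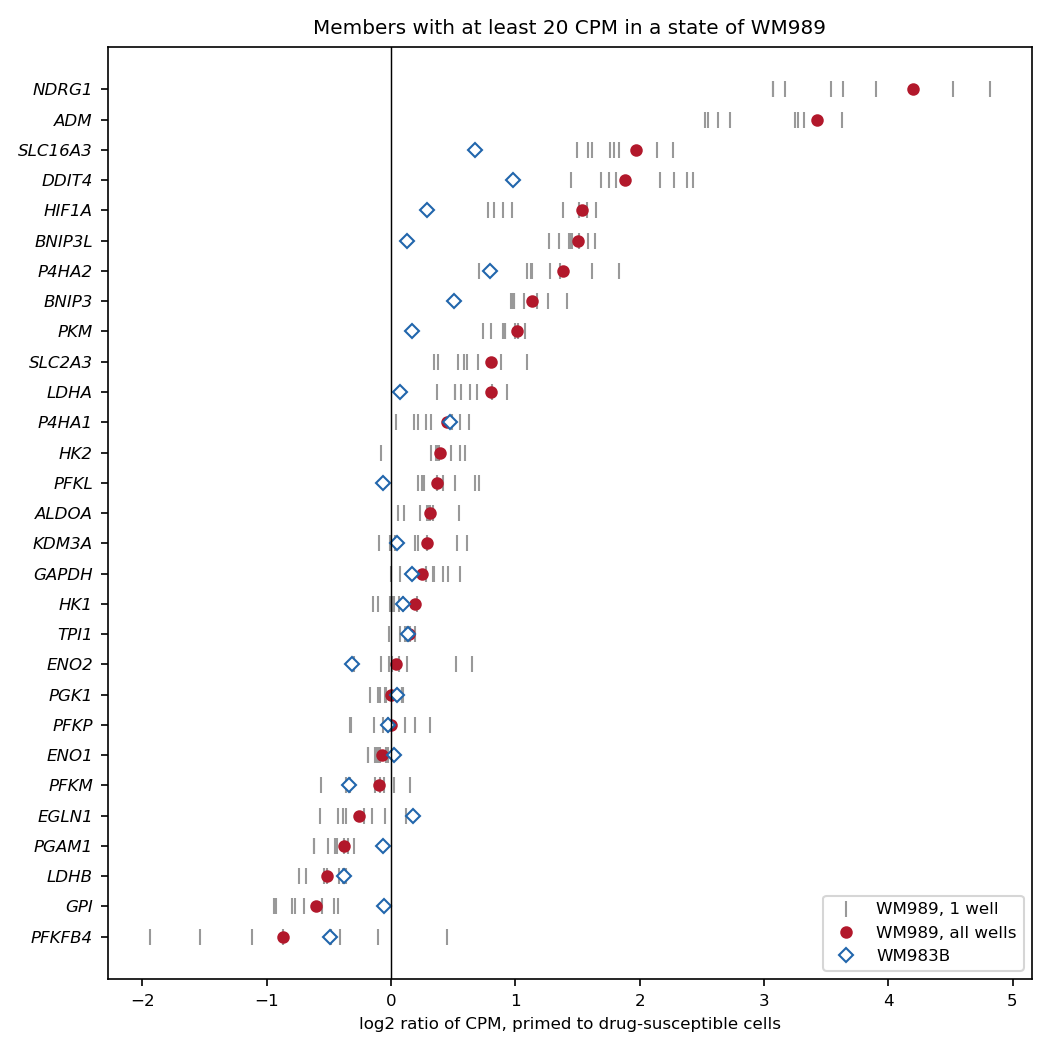
Log2 ratio of primed to drug-susceptible CPM (x axis) of the 29 members with at least 20 CPM in a state of WM989 (y axis). Ticks are the 8 wells of WM989, filled points all its wells together and open diamonds the WM983B library, where that member reached 20 CPM. NDRG1 in WM989 has a ratio of 18.4, at the far right, and LDHB lies left of 0 in both lines.

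In WM983B, 731 primed and 718 drug-susceptible cells of 1 library were compared by ratio alone. Of 26 members with at least 20 CPM, 4 were higher by 1.5 or more in primed cells, beside 4.1% of 6856 genes, and 0 were lower, beside 1.97%. DDIT4 stood at 118 and 59.8 CPM, a ratio of 1.98. SLC2A1 stood at 52.1 and 28.2 CPM, a ratio of 1.85. P4HA2 had a ratio of 1.74 and SLC16A3 of 1.596, followed by BNIP3 (1.42) and P4HA1 (1.39). DDIT4, P4HA2 and SLC16A3 were past the fold in both lines. The lowest ratios were those of PFKFB4 (0.713), LDHB (0.767), PFKM (0.793), ENO2 (0.804), PGAM1 (0.955) and PFKL (0.956). NDRG1 (13.2 and 6.23 CPM) was among the 13 members under 20 CPM in this line, and ADM was near 0 (0.471 and 0.148 CPM). The ratios of the other 14 at that level ran from 0.963 for GPI to 1.22 for HIF1A, with LDHA at 1.05. The median member ratio was 1.06 against 1.01 for all genes. The primed cluster 2, with 91 cells, was highest for 29 of 36 members at 5 CPM, beside 29.8% of genes.

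Chromatin at the starts of the members was open in every sort. A peak lay within 1000 bp of the start in all 12 libraries for 37 of 39 members (94.9%), against 83.2% of 14780 genes. CA9 had no peak in any library, and ANGPTL4 had 1 in 1 library, EGFR-NGFR-High 1. Fold enrichment of the peak over local background was higher in all 3 EGFR-NGFR-High than in all 3 Mix libraries for 3 of 39 members, no larger a share than the 9.96% of all genes, and lower for 0, beside 2.24%. Without replicate 1 it was 5 higher and 6 lower, beside 15.6% and 16.0% of all genes, so members and all genes alike had no prevailing direction then. With 3 libraries against 3 the smallest exact two-sided permutation p is 0.1, so no difference could pass. DDIT4, whose promoter is shown above, had an enrichment of 126, 118 and 109.7 in EGFR-NGFR-High and 108, 99.4 and 94.4 in Mix, means of 118 ± 7.95 and 101 ± 6.86 (SD, n = 3, exact permutation p = 0.1). SLC2A3 had 41.4, 43.5 and 40.2 against 36.3, 34.9 and 30.01, and PFKP 9.22, 11.3 and 8.93 against 7.62, 7.07 and 7.74. The ranges of NDRG1 (102, 81.8 and 83.4 against 80.6, 63.2 and 83.3) and HIF1A (55.6, 55.8 and 41.2 against 47.9, 39.1 and 66.8) overlapped. The members' median over a library ran from 37.2 to 54.5 and that of all genes from 28.6 to 36.9. The comparison of sorts above used fold enrichments that were not scaled between libraries. The median of all genes was 36.9, 32.1 and 30.3 in EGFR-NGFR-High and 31.8, 30.2 and 32.4 in Mix.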

How the data were processed

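Single-cell RNA-seq of WM989 and WM983B cells and ATAC-seq of sorted WM989 cells were read from the deposited tables. The authors counted UMIs with Cell Ranger against hg38, deposited these counts for each gene in each cell, filtered the cells (those with very many genes, which can be doublets, were removed, and no doublet caller was run here) and gave cluster, phase and state labels, which were used as given. The deposited peaks were called by the authors for each library with MACS2 2.1.1.20160309 after Bowtie2 2.3.4.1 alignment to hg38, with a fold enrichment, -log10 p and -log10 q values and a score, of which the fold enrichment and -log10 q were used.

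Counts of the treatment experiment were summed per library and tested with edgeR 4.0.16 in R 4.3.3 (filterByExpr, TMM factors 0.941 to 1.05, quasi-likelihood test on treatment and replicate, Benjamini-Hochberg, 0.05 over all genes tested). The SE is the absolute log2 fold change divided by the square root of F. The replicate term was kept because the differences between r2 and r1 correlated across 18389 genes in every pair of treatments (Pearson r 0.256 to 0.365). Nothing in the sources used here states that r1 and r2 came from separate cultures beyond parallel wells, so p-values measure the spread between these samples. States of WM989 and WM983B were compared as CPM with exact Poisson intervals (95%). ATAC peaks were taken within 1000 bp of the canonical transcript start of GENCODE v44 and compared with an exact two-sided permutation test. Tests were tried on simulated data. Alternatives were DESeq2 1.42.0, its size factors, no count filter, no replicate term, G1 cells only, equal cell numbers, and leaving out each library. The members and lists were chosen with earlier results of these data known. The members named with full values were the 14 largest changes under PI3Ki together with HIF1A and, as the partner of LDHA and chosen after its values were seen, LDHB, the 6 largest under TGFB1 and under TGFBRi, and the 6 at each end of the state ratios.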

Additional observations from a re-analysis of the deposited data

Results flagged for a closer look

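PFKL, the liver-type phosphofructokinase, had a ratio above 1 in WM989 and slightly below 1 in WM983B. Its ratio of primed to drug-susceptible CPM was 1.29 in WM989, above 1 in 8 of 8 wells, and 0.956 in the 1 WM983B library. The difference between the lines was not tested.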

How the results depend on the processing

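Over 128 counts, 109 stayed within 1.5 times the main value. Single members were followed where they were called in the main fit, and HIF1A in every comparison. Of these 2322 alternative values 2052 kept their call, 267 lost it, 3 gained one, all of HIF1A, and 0 reversed. Other members that were not called in the main fit were not followed, so their gains are not among these values. Without the replicate block the members past the threshold numbered 15 for PI3Ki versus TGFBRi, 0 for TGFBRi versus control, 20 for PI3Ki, 9 for TGFB1 and 1 for TGFBRi in drug-susceptible cells, 20 for PI3Ki versus control over all cells, 12 for TGFB1 versus control and 28 for PI3Ki versus TGFB1. In G1 cells only, TGFBRi called 3 members over all cells and 5 in drug-susceptible cells. Leaving out 1 library each gave 22 to 34 members for PI3Ki, 27 to 32 for PI3Ki versus TGFB1, 16 to 25 for PI3Ki versus TGFBRi, 11 to 17 for TGFB1 and 1 to 10 for TGFBRi. In drug-susceptible cells it gave 20 to 33 for PI3Ki (20 without PI3Ki r2), 8 to 19 for TGFB1 and 3 to 13 for TGFBRi (3 without Control r1, 5 without Control r2). The lone library left is then assumed to vary like the others. Members highest in primed cluster 4 or 10 numbered 28 of 37 over all libraries. With control cells only, where cluster 4 was left out, 17 of 36 were highest in cluster 10, beside 25.9% of genes. For ATAC-seq, where same-numbered libraries did not deviate together (r -0.169 to -0.0249), 7 members differed in 1 direction in all 3 same-numbered pairs, the replicate block, 6 higher and 1 lower beside 19.7% and 5.18% of all genes. Leaving out a number gave 8 to 19 members with no overlap, since fewer libraries overlap less by construction, and the split was 5 higher and 6 lower without replicate 1 (15.6% and 16.0% of all genes), 7 and 1 without replicate 2 (19.7% and 6.61%) and 18 and 1 without replicate 3 (35.6% and 4.06%), against 3 and 0 with all. A 200 bp window gave 2 higher (9.52% of all genes), and the first base of the gene record, chosen after seeing the data, gave 4 (9.70%). The causes of the other changes were not tested. Low counts limit ANGPTL4, EGLN3, MIR210HG and CA9.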

Other observations

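EGFR-High and NGFR-High libraries of ATAC-seq entered no comparison. At DDIT4 the fold enrichment was 93.9, 101 and 91.0 in the EGFR-High libraries and 113, 107 and 104 in the NGFR-High libraries. At BNIP3, the mitophagy receptor, it was 20.1, 21.3 and 20.6 in EGFR-High and 21.9, 23.6 and 17.4 in NGFR-High. TGFBRi left ANGPTL4 at 0 counts in 1 library and 14 in the other.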
